A study of Arabidopsis thaliana with 8 samples.

Results

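The transcripts described here rose with nitrate in roots and in shoots of Arabidopsis thaliana alike. They were chosen from the measured signals. A probe set was a member when its log2(signal + 16) was at least 0.6 higher with nitrate than in KCl in roots and in shoots, when both nitrate arrays lay above both KCl arrays in each organ, and when its mean signal over the 8 arrays exceeded 33.3. Of 13640 probe sets above that signal, out of 22746 on the array, 112 met these thresholds (0.821%). From these, 19 were left out by name, among them HYH, AT1G64190, AT5G41670, AT1G68670 and AT1G25550, whose values stand with the nitrate genes at the end. The 93 members left are the subject here. Of these, 43 probe sets match 1 gene in the probe table, which gives 42 genes, 2 match several genes, and 48 have no gene listed and are called by their probe set.

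Nitrate is both the main nitrogen source of most land plants and a signal that changes transcription within minutes. In Arabidopsis, the transporter NRT1.1 also senses nitrate, and transcription factors of the NIN-like protein family move to the nucleus and bind nitrate-responsive genes. The best-known early targets encode nitrate uptake and reduction, the supply of reductant to nitrite reductase, and GARP repressors that limit the response.

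All samples were wild-type Col-0 seedlings 10 days old, grown in liquid medium under constant light, with the shoots held above the liquid. The 4 groups were roots given 250 µM potassium nitrate for 20 min, roots given 250 µM potassium chloride (KCl) for 20 min, shoots given the same nitrate treatment and shoots given the same KCl treatment. Each group held 2 samples, so 8 ATH1 arrays of total RNA were read, and this small number limits the precision. Many seedlings shared a beaker, and nothing in the labels tells whether both samples of a group had beakers of their own. The p-values therefore cover only the variation seen between these arrays, part or all of which may be technical. KCl supplies the same potassium, so the groups differ in the anion. In RNA from whole organs, fewer cells of a type and less RNA per cell cannot be told apart.

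The arrays had median signals between 42.3 and 49.9. The organ labels were checked against 1 shoot gene and 5 root genes of a marker list of 12; the other 6 have no probe set in the probe table. RCA, encoding Rubisco activase, averaged 129.6 in roots and 3042 in shoots. The peroxidase gene AT3G01190 averaged 1063 in roots and 14.2 in shoots, and PYK10 averaged 3372 in roots and 2671 in shoots, a difference that did not pass (limma, adjusted p = 0.108).

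**Figure D1:**
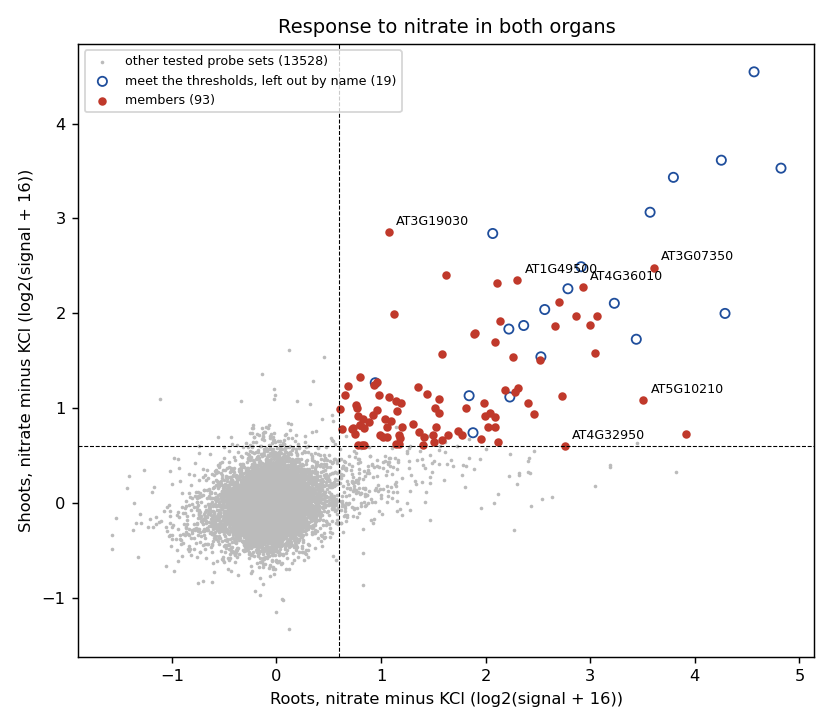
Change with nitrate (nitrate minus KCl, log2(signal + 16)) in roots (x axis) and shoots (y axis) for 13640 tested probe sets. The 93 members (filled circles) lie beyond the dashed lines at 0.6 on both axes, as the rule requires; the 19 left-out probe sets are open circles and all others are grey.

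The rise was larger in roots than in shoots for most members. The median change was 1.44 on the log2 scale in roots and 0.95 in shoots, against -0.03 in roots and -0.01 in shoots over all tested probe sets. In roots the members ranged from 0.61 to 3.92 and in shoots from 0.60 to 2.86. The change was larger in roots for 69 members and larger in shoots for 24, and for 46 the organs differed by less than 0.5. Both changes entered the rule, so these values describe the members and were not tested. At least 1 on the log2 scale was reached by 68 members in roots, by 42 in shoots and by 34 in both.

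By the same thresholds, 355 probe sets rose in roots (2.6% of those tested) and 166 in shoots (1.22%). The 112 shared ones were 31.5% of the root set and 67.5% of the shoot set. With the thresholds turned round, 5 probe sets were lower with nitrate in both organs (0.0367%), 1 was higher in roots and lower in shoots, and none was lower in roots and higher in shoots. In the fit across all probe sets 47 members passed in roots, where 1.03% of all tested probe sets did, and 3 passed in shoots, where 0.0953% did (limma, adjusted p under 0.05). The rule used these contrasts, so the counts are a description.

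The rule asked for nitrate above KCl, so the members' signals by treatment are a description of what it chose. The median member signal was 254.6 with nitrate and 72.4 in KCl in roots, and 144 with nitrate and 48.8 in KCl in shoots. Over all tested probe sets the medians were 96.9 and 98.7 in roots, and 101 and 102 in shoots. Both KCl arrays lay under 33.3 for 18 members in roots and for 31 in shoots, while both nitrate arrays did for none in roots and for 4 in shoots. Such members passed the filter on the mean of 8 arrays through their other, higher groups. No detection calls were used, so it is not known whether such low signals were above what the array can detect. The log2(signal + 16) scale understates their change.

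**Figure D2:**
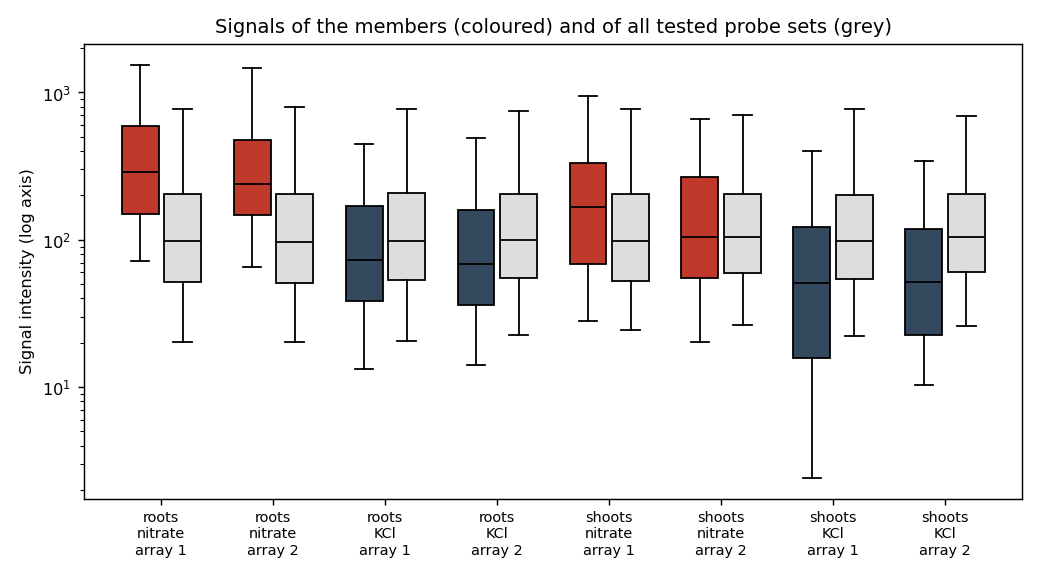
Signal intensity (log axis) on each of the 8 arrays for the 93 members (coloured) and for all 13640 tested probe sets (grey). Boxes span the quartiles with the median as a line, and whiskers reach the percentiles 5 and 95; the members' medians are above the grey ones on the nitrate arrays of roots and on the first nitrate array of shoots, close to it on the second nitrate array of shoots, and below them on all KCl arrays.

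The arrays of a group also differed. With nitrate, the first array was above the second for 74 of 93 members in roots (79.6%, against 51.5% of all tested probe sets) and for 68 in shoots (73.1%, against 45.0%). The median member signal was 288 on the first and 239 on the second nitrate array of roots, and 166 on the first and 104 on the second nitrate array of shoots. In KCl the first array was above the second for 53 members in roots (57%, against 48.3%) and for 37 in shoots (39.8%, against 45.9%). The part of this difference between nitrate arrays in the members' changes was not tested. The lowest nitrate array stood at least 1 on the log2 scale above the highest KCl array for 53 members in roots, for 14 in shoots and for 12 in both. It stood less than 0.3 above for 6 members in roots and for 20 in shoots. The rule asked for both nitrate arrays above both KCl arrays, so these gaps describe what it chose. They were not counted over all tested probe sets.

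The largest mean change over both organs among members of 1 gene was that of AT3G07350, which encodes a protein of the DUF506 family. Its signal in roots was 424 and 418 with nitrate, against 26.6 and 14.1 in KCl. In shoots it was 209 and 87.8 with nitrate, against 9.84 and 12.9 in KCl. All nitrate arrays were well above all KCl arrays, and AT3G07350 changed by 3.61 in roots and 2.48 in shoots on the log2 scale. AT4G36010, of the thaumatin family, had signals of 880.1 and 702 with nitrate, against 90.4 and 88.4 in KCl in roots. In shoots it had 340.0 and 250.3 with nitrate, against 44.5 and 50.6 in KCl. Its KCl arrays were nearly equal in both organs, and its changes were 2.93 in roots and 2.28 in shoots.

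AT1G49500 changed by a like amount in both organs. In roots it had 253 and 327 with nitrate, against 46.8 and 44.2 in KCl. Shoots had 178 and 181 with nitrate, against 5.53 and 51.9 in KCl, so its shoot KCl arrays were far apart. Its changes were 2.30 in roots and 2.35 in shoots. AT5G54130, encoding a calcium-binding protein of the endonuclease, exonuclease and phosphatase family, is the one gene with 2 member probe sets. The probe set 248191_at had 340.0 and 340.2 with nitrate, against 67.7 and 65.9 in KCl in roots. It had 239 and 332 with nitrate, against 37.0 and 51.2 in KCl in shoots. The other, 248190_at, had 178 and 211 with nitrate, against 40.4 and 66.3 in KCl in roots, and 117 and 219 with nitrate, against 15.8 and 19.4 in KCl in shoots. Both probe sets changed more in shoots (2.32 and 2.40) than in roots (2.10 and 1.63), and on both the second shoot nitrate array was the higher.

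AT3G19030 had the largest shoot change of all 93 members, 2.86 on the log2 scale, beside 1.08 in roots. Its signals were 697 and 279.8 with nitrate, against 62.4 and 35.3 in KCl in shoots. In roots they were 1144 and 956 with nitrate, against 535 and 445 in KCl. It was the one member whose shoot change exceeded its root change by at least 1, whereas the reverse held for 21 members. The shoot nitrate arrays differed from each other, but the lower of them was still above both KCl arrays.

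AT5G10210 changed far more in roots than in shoots. Its root signals were 163 and 195 with nitrate, against 1.00 and 1.11 in KCl, the bottom of the scale. In shoots they were 42.3 and 19.2 with nitrate, against 4.69 and 5.94 in KCl. The changes were 3.51 in roots and 1.09 in shoots, and 1 of the shoot nitrate arrays lay below 33.3. AT4G09620 had 397 and 333 with nitrate, against 56.0 and 55.7 in KCl in roots. It had 249.7 and 219 with nitrate, against 100.1 and 109 in KCl in shoots. The groups were well apart in both organs, with changes of 2.40 in roots and 1.05 in shoots.

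**Figure D3:**
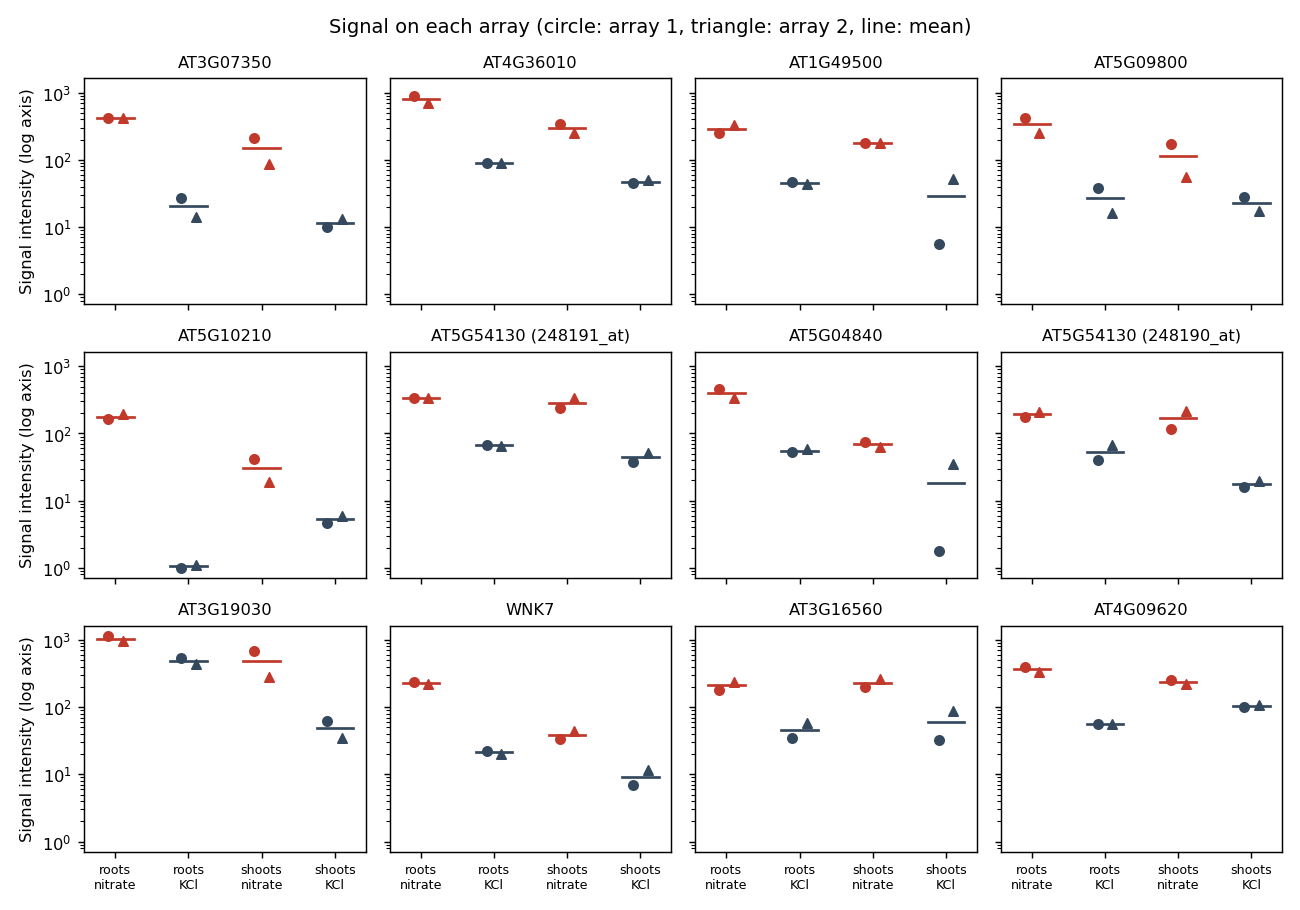
Signal intensity (log axis) on every array for the 12 members of 1 gene with the largest mean change, in roots and shoots with nitrate (red) and in KCl (dark). Circles are the first array of a group, triangles the second and lines the mean; in every panel both nitrate arrays of an organ lie above both of its KCl arrays, as the rule requires.

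Among regulators of transcription, 5 members encode known families, and each changed more in roots. AT5G04840, a bZIP protein, had 466 and 335 with nitrate, against 52.3 and 58.9 in KCl in roots. In shoots it had 75.3 and 64 with nitrate, against 1.80 and 34.6 in KCl. The log2 changes were 2.52 in roots and 1.51 in shoots, and the shoot KCl arrays were far apart. AT1G21000, of the PLATZ zinc-binding family, averaged 1194 ± 4.38 with nitrate and 283 ± 41.1 in KCl in roots (SD, n = 2 each). In shoots it averaged 635 ± 289 with nitrate and 343 ± 81.4 in KCl, a wide spread between samples. AT3G11580, with a B3 DNA-binding domain, changed by 1.59 in roots and 0.66 in shoots, and AT4G39780, of the AP2/ERF family, by 1.19 in roots and 1.05 in shoots. SMZ, an AP2-type repressor of flowering, changed by 0.99 in roots and 0.72 in shoots.

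A protein kinase and 2 protein phosphatases of the PP2C family were also members. WNK7, a kinase of the WNK family, had 239 and 222 with nitrate, against 22 and 20.3 in KCl in roots. Its shoot signals were 33.5 and 44.6 with nitrate, against 6.88 and 11.5 in KCl. Replicates were close in roots, but the KCl signals of both organs lay under 33.3 and may not be above what the array can detect. The changes of WNK7 were 2.73 in roots and 1.13 in shoots. The phosphatase gene AT3G16560 had 182 and 239 with nitrate, against 34.3 and 57.5 in KCl in roots. Its shoot signals were 198 and 263 with nitrate, against 32.9 and 86.8 in KCl. It changed by nearly the same amount in both organs, 1.89 in roots and 1.78 in shoots. The phosphatase gene AT4G32950 did not: it changed by 2.75 in roots but by only 0.60 in shoots, the smallest shoot change of any member.

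The ubiquitin system was represented by 4 members. AT5G09800, which encodes a U-box ubiquitin ligase, had 421 and 252 with nitrate, against 38.2 and 15.9 in KCl in roots. Shoots had 171 and 54.9 with nitrate, against 28.3 and 17.2 in KCl. The changes were 3.04 in roots and 1.59 in shoots, and the first array was the higher in all 4 groups. UBC18, a ubiquitin-conjugating enzyme, averaged 358 ± 43.8 with nitrate and 153 ± 18.4 in KCl in roots (SD, n = 2 each). In shoots it averaged 195 ± 31.6 with nitrate and 121 ± 2.14 in KCl. The RING ligase genes AT1G72220 and AT4G40070 changed by 0.89 and 0.75 in roots and by 0.85 and 0.73 in shoots.

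Among enzymes and transport proteins, 7 members changed by 1.02 to 2.46 in roots and by 0.64 to 1.14 in shoots, and all 7 changed more in roots. MDH, the plastid NAD-dependent malate dehydrogenase, averaged 1376 ± 239 with nitrate and 468 ± 29.1 in KCl in roots (SD, n = 2 each). In shoots it averaged 759 ± 46.4 with nitrate and 371 ± 43.8 in KCl. Its root nitrate arrays differed, at 1546 and 1207, and it changed by 1.52 in roots and 1.00 in shoots. BAT1, an acyltransferase that acts on brassinosteroids, changed by 2.46 in roots and 0.93 in shoots. CYP78A9, a cytochrome P450 known for its effect on fruit and seed size, changed by 1.44 in roots and 1.14 in shoots, with KCl signals under 33.3 in both organs. The other 4 were AT5G19120, of the aspartyl protease family (1.81 in roots and 1.00 in shoots), AT5G10820, related to folate and biopterin transporters (1.51 and 0.64), AT5G03380, with a heavy-metal-associated domain (1.05 and 0.80), and AT5G59490, of the haloacid dehalogenase family (1.02 and 0.69).

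**Figure D4:**
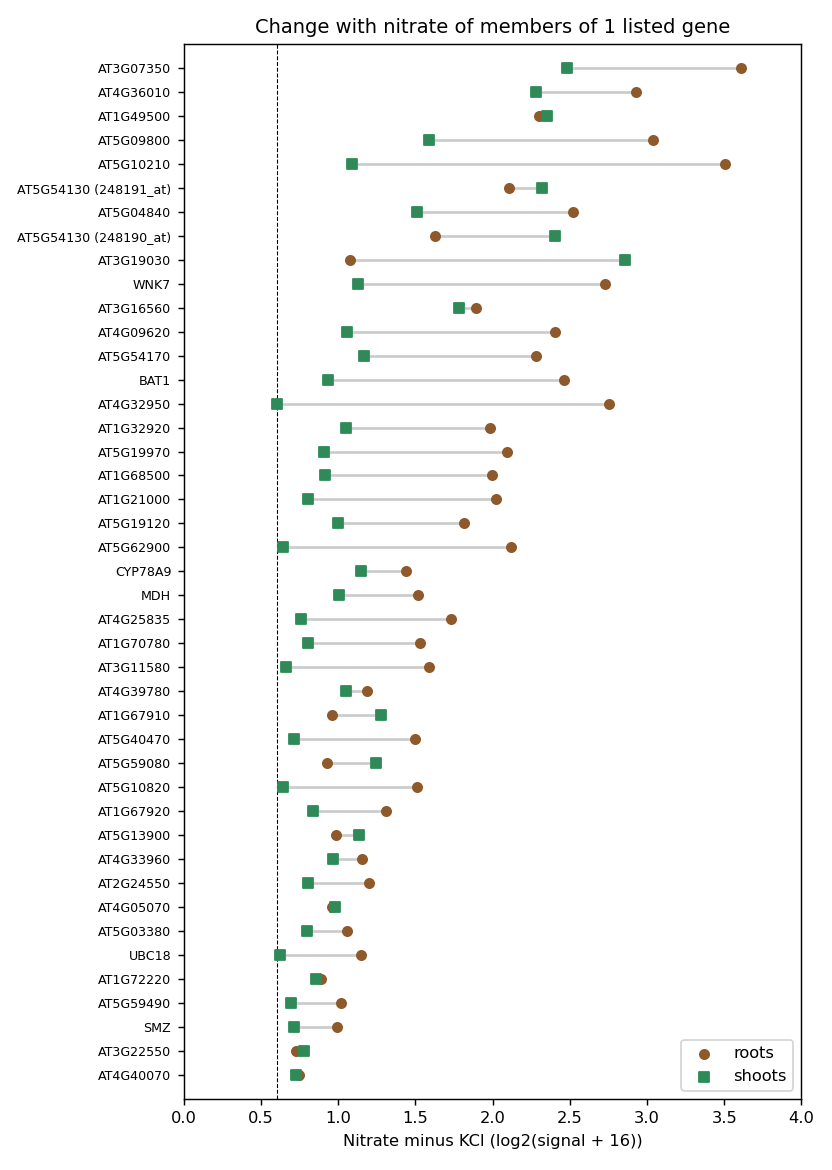
Change with nitrate (nitrate minus KCl, log2(signal + 16)) in roots (circles) and shoots (squares) for the 43 members that match 1 gene, ordered by the mean of both. The dashed line marks the threshold of 0.6; root circles lie to the right of the shoot squares for all but 9 of them.

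The other members of 1 gene had changes within 0.72 to 2.28 in roots and 0.64 to 1.27 in shoots. In order of mean change they were AT5G54170, AT1G32920, AT5G19970, AT1G68500, AT5G62900, AT4G25835, AT1G70780, AT1G67910, AT5G40470, AT5G59080, AT1G67920, AT5G13900, AT4G33960, AT2G24550, AT4G05070 and AT3G22550. AT4G25835 encodes an AAA-type ATPase, and AT3G22550 a protein of the FLZ zinc-finger family. AT1G67910 and AT1G67920 are next to each other on the chromosome, with 0 protein-coding genes between them in the TAIR10.1 gene records. AT1G67910 changed by 0.96 in roots and 1.27 in shoots, and AT1G67920 by 1.31 in roots and 0.84 in shoots.

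The 50 members without a single listed gene ranged from 0.61 to 3.92 in roots and from 0.61 to 2.12 in shoots. The probe set 255230_at had 1374 and 1044 with nitrate, against 132 and 127 in KCl in roots. In shoots it had 798 and 343 with nitrate, against 139.7 and 107 in KCl. The nitrate arrays were far above the KCl arrays, and those of shoots were far apart from each other. The probe set 261806_at had 2066 and 1862 with nitrate, against 264 and 204 in KCl in roots, and 538 and 258 with nitrate, against 82.4 and 97.5 in KCl in shoots. Its changes were 3.00 in roots and 1.88 in shoots. The probe set 253043_at had 279.7 and 305 with nitrate, against 25.5 and 27.5 in KCl in roots, and 214 and 230.1 with nitrate, against 22.8 and 79.4 in KCl in shoots. Its nitrate arrays agreed closely in both organs.

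The probe set 266832_at had 420.2 and 279.8 with nitrate, against 53.8 and 27.8 in KCl in roots, and 199.6 and 86.0 with nitrate, against 20.7 and 15.6 in KCl in shoots. It changed by 2.70 in roots and 2.12 in shoots, which is the largest shoot change among these 50. The probe set 259365_at had 567 and 429 with nitrate, against 13.2 and 22.8 in KCl in roots, the largest root change of all members (3.92). In shoots it had 28.2 and 6.52 with nitrate, against 4.56 and 1.71 in KCl, all under 33.3. The probe set 259813_at had 1537 and 1219.6 with nitrate, against 317 and 128 in KCl in roots, and 106 and 31.8 with nitrate, against 9.78 and 0.85 in KCl in shoots. Its shoot signals were far below its root signals.

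At the edge of the rule, the smaller of the 2 changes was 0.60 for AT4G32950 and 0.61 for 253268_s_at, both in shoots, just inside. Just outside were 263922_s_at, with 1.28 in roots and 0.598 in shoots, and 247228_at, with 1.72 in roots and 0.597 in shoots.

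Roots against shoots asked where the members were expressed, a contrast that the rule did not use. The mean over both treatments was compared on all 8 arrays. Of 93 members, 53 were higher in roots (57%, against 26.8% of all tested probe sets) and 12 were lower in roots (12.9%, against 24.1%) by limma at an adjusted p under 0.05. The other 28 did not pass. Of the 53, 14 had a mean signal in shoots not above 33.3, so they passed the filter through roots alone and could only lie higher there, and 2 of the 12 passed through shoots alone. With these dropped from the calls but kept in the totals, 39 of 93 were higher in roots (41.9%). The share over all tested probe sets, counted the same way, was 20.7%. Lower in roots were 10 of 93 (10.8%, against 15.6%). The median difference, roots minus shoots, was 0.66 on the log2 scale for the members and 0.08 over all tested probe sets. This mean holds part of the larger root response, so KCl alone was compared too: there 32 members were higher in roots (18.6% of all tested probe sets were) and 12 lower (19.2%). With nitrate alone 54 were higher (18.6%) and 8 lower (19.6%). The rule chose members on their signals by treatment, so the counts in KCl alone and with nitrate alone are a description. Members that passed the filter through roots alone or shoots alone were not taken out of them.

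BAT1 had signals of 1269.6 and 1069 with nitrate and 179 and 219 in KCl in roots, against 119 and 98.0 with nitrate and 52.9 and 45.1 in KCl in shoots. All root arrays were above all shoot arrays, and the log2 difference was 2.49 ± 0.13 (SE of the limma fit, adjusted p = 1.07e-06). AT5G13900, encoding a protein of the lipid transfer type, had the largest difference among members of 1 gene, 2.72 ± 0.18 (limma, adjusted p = 3.73e-06). It had 336 and 289 with nitrate and 137 and 164 in KCl in roots, against 36.1 and 36.9 with nitrate and 2.41 and 14.9 in KCl in shoots. Its mean in shoots was 22.6, so it passed the filter through roots alone. The size of the difference rests on low shoot signals, which may not be above what the array can detect.

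AT2G24550 had 739 and 697 with nitrate and 288 and 321 in KCl in roots, against 179 and 96.1 with nitrate and 64.8 and 73.1 in KCl in shoots. The ranges did not overlap, and the difference was 2.11 ± 0.18 (limma, adjusted p = 1.47e-05). AT3G19030 differed by 2.10 ± 0.27 (limma, adjusted p = 0.000224), although its first shoot nitrate array, at 697, was above both root KCl arrays. AT1G67920 had 269.8 and 171 with nitrate and 88.1 and 67.8 in KCl in roots, against 67.6 and 16.2 with nitrate and 15.8 and 10.5 in KCl in shoots. Its lowest root array just exceeded its highest shoot array. It too passed the filter through roots alone, with a mean of 27.5 in shoots, and the difference was 1.92 ± 0.29 (limma, adjusted p = 0.000621). These 5 differences passed under every alternative run for them, though AT5G13900 and AT1G67920, kept through roots alone, could only lie higher there.

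Lower levels in roots were found for 4 members of 1 gene. AT5G59080 had 38.1 and 16.2 with nitrate and 10.2 and 2.34 in KCl in roots, against 97.4 and 64.1 with nitrate and 20.5 and 28.2 in KCl in shoots, a difference of -1.03 ± 0.23 (limma, adjusted p = 0.00506). AT5G54170 had 462 and 290.1 with nitrate and 63.6 and 61.9 in KCl in roots, against 582 and 399 with nitrate and 197 and 214 in KCl in shoots, a difference of -0.94 ± 0.18 (limma, adjusted p = 0.00215). Its root signals were far lower in KCl only; with nitrate alone the difference was -0.38 (limma, adjusted p = 0.277). AT5G59080, with a mean of 16.7 in roots, passed the filter through shoots alone and missed the threshold in KCl alone (limma, adjusted p = 0.0635).

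AT3G22550 had 126 and 102 with nitrate and 57 and 68.1 in KCl in roots, against 143 and 192 with nitrate and 102 and 79.5 in KCl in shoots. The ranges overlapped, and the difference was -0.47 ± 0.15 (limma, adjusted p = 0.0273). With nitrate alone the difference was -0.49 and did not pass. Over all alternatives AT3G22550 missed the threshold under 8 of 21 (limma, adjusted p up to 0.136). AT1G70780 had 986 and 942 with nitrate and 325 and 324 in KCl in roots, against 985 and 900.6 with nitrate and 516 and 552 in KCl in shoots, a difference of -0.33 ± 0.10 (limma, adjusted p = 0.0265). With nitrate alone AT1G70780 stood at 0.03, so its lower level in roots was seen in KCl. Both missed the threshold with some single arrays left out, with adjusted p of 0.0745 to 0.105 for AT3G22550 (4 arrays) and of 0.0502 to 0.0983 for AT1G70780 (6 arrays).

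**Figure D5:**
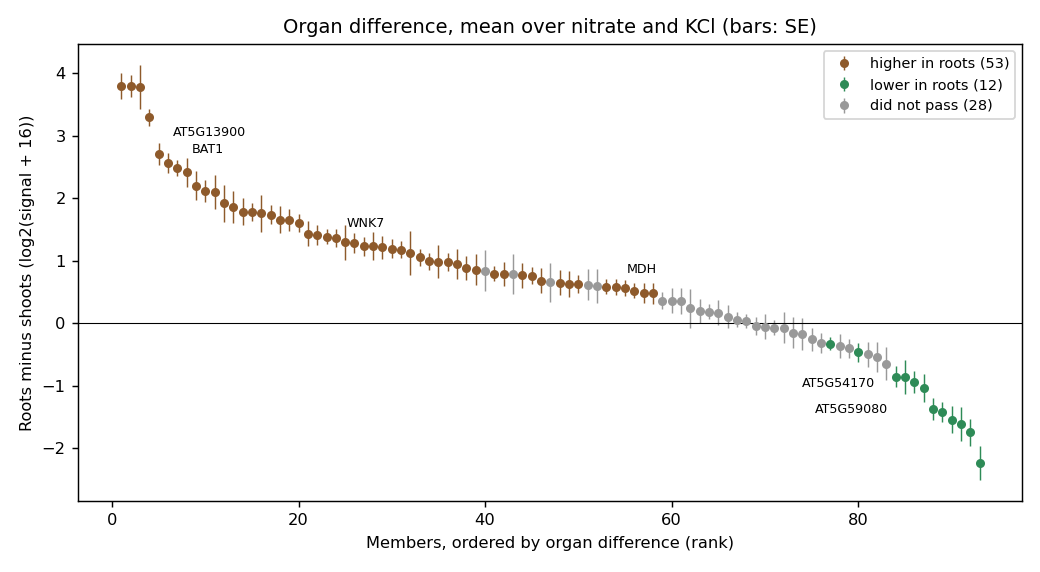
Roots minus shoots (log2(signal + 16), mean over nitrate and KCl) for each of the 93 members, ordered by size, with the SE of the limma fit as bars. Of these, 53 were higher in roots, 12 were lower in roots and 28 did not pass.

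By role, 3 of 5 transcription factor members, 2 of 3 kinase and phosphatase members, 3 of 4 ubiquitin members and 6 of 7 enzyme and transport members were higher in roots, and none of these 19 was lower (limma, adjusted p under 0.05; 26.8% and 24.1% of all tested probe sets). Of those higher in roots, WNK7, AT1G72220, AT4G40070 and CYP78A9 had mean signals in shoots of 24.1, 16.1, 19.3 and 21.8. They passed the filter through roots alone and could only lie higher there. The 12 that were lower in roots included 8 of the 50 without a single listed gene. Of these, 260287_at had the largest difference, -2.23 ± 0.28 (limma, adjusted p = 0.00017). It had 81.4 and 78.8 with nitrate and 21.2 and 36.2 in KCl in roots, against 957 and 368 with nitrate and 158 and 119 in KCl in shoots. The 53 members higher in roots had a median change with nitrate of 1.51 in roots and 0.86 in shoots. The 12 lower in roots had 0.87 in roots and 1.06 in shoots, and the 28 that did not pass had 1.65 and 1.00. The organ difference itself holds part of the root change minus the shoot change. These values describe the sets without a test.

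Genes with known roles in nitrate use were taken from 7 lists of 159 genes, of which the probe table names 27 and 24 were tested. None of the 24 is among the 93 members, and 5 of them met the rule and are among the probe sets left out by name. List genes that the probe table does not name could not be matched to members, and 48 members have no gene listed. Overlap of the members with the rest of the lists could therefore not be assessed. In roots 6 of 24 rose and none fell (limma, adjusted p under 0.05; 1.03% and 0.103% of all tested probe sets), with 6 higher and 1 lower at an unadjusted p under 0.05. In shoots 1 rose and none fell (0.0953% and 0%), with 6 higher and none lower at an unadjusted p under 0.05. The 6 that rose in roots include the 5 that met the rule, and the 1 in shoots is among those 5. The lists were also chosen with earlier results of these data known, so these counts are a description. The median change over the 24 was 0.06 in roots and 0.14 in shoots, beside -0.03 in roots and -0.01 in shoots over all tested probe sets. The 6 that rose in roots fell to 1 without the first root nitrate array, 3 without the second, and 2 without either root KCl array. In shoots 2 rose without the second nitrate array, 3 without the second KCl array and 0 when the root arrays were left out of the fit.

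In reductant supply 2 of 7 tested genes rose in roots: AT5G41670, a 6-phosphogluconate dehydrogenase, by 2.91 ± 0.19 (SE; limma, adjusted p = 0.00043) and AT1G64190, its relative, by 2.53 ± 0.26 (limma, adjusted p = 0.0026). AT5G41670 was also the 1 that rose in shoots, by 2.49 ± 0.19 (limma, adjusted p = 0.00303), while AT1G64190 had 1.54 ± 0.26 (limma, adjusted p = 0.162). Among regulators, 3 of 6 rose in roots: the GARP genes AT1G68670 (2.36 ± 0.26) and AT1G25550 (2.22 ± 0.26) and the bZIP gene HYH (2.23 ± 0.37, limma, adjusted p = 0.029). In shoots these had 1.87, 1.83 and 1.12, and none passed (limma, adjusted p of 0.0617 for both GARP genes). These calls depended on the setting: both GARP genes passed in shoots without the second shoot KCl array (limma, adjusted p of 0.027 for AT1G68670 and 0.012 for AT1G25550), and AT1G64190 did without the second shoot nitrate array (limma, adjusted p = 0.0118).

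In nitrate and nitrite reduction 1 of 2 rose in roots, AT2G43760 of molybdenum cofactor synthesis (1.47 ± 0.21; limma, adjusted p = 0.0134), beside 0.51 ± 0.21 in shoots, where it did not pass. SIRB, of siroheme synthesis, had -0.05 in roots and 0.19 in shoots. None of 3 transport genes passed in either organ: AT3G21670 had -0.70 in roots and 0.14 in shoots, NRT2.5 had -0.45 and 0.55, and AT2G26690 had -0.28 and 0.09. None of 6 organic acid genes passed, and the smallest p among them in roots belonged to IDH-V (0.35 ± 0.16; limma, adjusted p = 0.927) and AT5G63680 (0.27). The lists of ammonium assimilation and of trehalose phosphate and cytokinin synthesis had no gene in the probe table and were not analysed here.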

How the data were processed

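The authors deposited linear signal intensity values for each probe set, made with MAS5 and GCOS per the submitters' processing notes. Their versions, scaling target and any filters are not given in the sources at hand. With the lowest and highest 2% of probe sets removed, each array averaged 100.01, and no further scaling was applied. The 64 control probe sets were left out. Values were analysed as log2(signal + 16), which understates changes at low signal. The 13640 probe sets with a mean signal above 33.3 were fitted over 4 groups in R 4.3.3 with limma 3.58.1 (lmFit, eBayes with a trend; 4 residual and 4.34 prior degrees of freedom), with two-sided tests, Benjamini-Hochberg adjustment over all of them and a threshold of 0.05. The fit was tested on simulated arrays whose noise was independent from array to array. Deviations of same-numbered samples were correlated in the real data, and the simulation does not cover that. Figures were drawn with matplotlib 3.10.9.

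Groups and numbers came from sample titles. Gene names came from the probe table of the platform annotation, updated to TAIR10.1 gene records, in which all 43 members of 1 gene matched; the rest are given by probe set. No gene coordinates or sequences are given. The members and gene lists were chosen with earlier results of these data known. The naming rule took up to 40 members of 1 gene by mean change, all array values for the first 12 and for up to 5 called in each direction between organs, the first 6 without a single listed gene, and up to 3 genes per list and organ. SMZ, AT4G40070 and 260287_at fell outside it and were chosen after their values were seen. Role groups were formed after the members were known.

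Other settings tried were pseudocounts of 1 and 64, quantile normalization, other signal filters and thresholds, eBayes without trend or with robust fitting, replicate blocks, single organs or treatments, and leaving out each array in turn.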

Additional observations from a re-analysis of the deposited data

How the results depend on the processing

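The number of members, 93, was 44 at a pseudocount of 64 and 34 at a change of at least 1; under the other alternatives run it was between 78 and 124. With single arrays left out the lowest, 80, was without the first shoot nitrate array, which shared 65 with the 93, and the highest, 124, without the second, which shared 87. The 53 members higher in roots were 32 in KCl alone and 33 when a 2-fold difference was also required, and between 44 and 61 otherwise. The 12 lower in roots were 7 with a 2-fold difference required and between 8 and 17 otherwise. With single arrays left out the counts ranged from 44 to 56 and from 9 to 13.

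Of the listed genes, 6 rose in roots, and 1 to 3 with any root array left out. In shoots 1 rose; it was 3 with quantile normalization, 4 with either replicate block, 0 with only the shoot arrays, and 1 to 3 with single arrays left out.

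The numbers 1 and 2 are shared by all groups, and deviations of same-numbered samples correlated by 0.44 within roots, 0.67 within shoots and 0.21 to 0.39 between organs over 13640 probe sets, but no label explains the number. With 1 replicate block for both organs 58 members were higher and 16 lower in roots, and with a replicate block within each organ 61 and 17. Under either replicate block AT1G68670, AT1G25550 and AT1G64190 passed in shoots beside AT5G41670, with adjusted p of 0.0189 to 0.0268 under the first and of 0.00109 to 0.00325 under the second; both GARP genes also passed there with quantile normalization (0.0398).

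These changed sign: the organ difference of AT1G70780, to 0.032 with nitrate alone, and 5 changes that had not passed. With single arrays left out, the root change of AT5G08570 ranged from -0.034 to 0.41 (lowest without the second KCl array), that of NRT2.5 from -1.25 to 0.34 and that of SIRB from -0.0999 to 0.0053 (both highest without the second nitrate array). The shoot change of NRT2.5 ranged from -0.23 (without the first nitrate array) to 1.33, and was -0.09 without the second KCl array. That of AT2G26690 ranged from -0.31 (without the first KCl array) to 0.49, and was -0.09 without the second nitrate array. HYH missed the threshold in roots under 7 of 20 alternatives, AT2G43760 under 5, AT1G25550 under 4 and AT1G68670 under 3. The causes were not tested. Among the 93 members, both KCl arrays lay under 33.3 for 31 in shoots and for 18 in roots.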

Other observations

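With the thresholds turned round, 5 probe sets were lower with nitrate in both organs, and 4 of them match 1 gene; they were chosen after their values were seen and were not tested. SGP1 had signals of 97.8 and 108 with nitrate, against 202 and 224 in KCl in roots, and 43.7 and 58.2 with nitrate, against 84.1 and 86.6 in KCl in shoots. AT3G22970 had 126 and 203 with nitrate, against 247 and 442 in KCl in roots, and 114 and 224 with nitrate, against 237 and 319.5 in KCl in shoots. AT5G56980 changed by -0.61 in roots and -0.84 in shoots, and AT3G19680 by -0.70 in roots and -0.82 in shoots. The 1 probe set higher in roots and lower in shoots, 246295_at, had low signals, of 34.4 and 38.2 with nitrate, against 20.3 and 7.83 in KCl in roots, and 29.7 and 16.5 with nitrate, against 90.0 and 30.5 in KCl in shoots.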
